A study of Mus musculus with 15 samples.

Results

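What 3 days of either fat-rich diet did to the mouse liver in common was read from a single contrast: the 10 libraries from mice on a ketogenic or a high-fat diet, with the diets weighted equally, against the 5 libraries from mice on chow. These are all 15 libraries of the series, each of total RNA from the liver of a C57BL/6 mouse, an inbred laboratory strain. The ketogenic diet (5 libraries) and the high-fat diet (5 libraries) were given at 12 weeks of age for 3 days, and the chow group (5 libraries) has no age in the labels. The groups follow the diet named in the title and in the diet field of each library, since the treatment field names a short ketogenic diet for every library, chow included. Diet composition, sex, food intake, time of day at collection and batch have no entry in the labels, so that a batch or collection time that followed the diets cannot be told apart from diet. Each numbered library was taken as a separate mouse, which the labels do not state outright, and p-values measure the spread between these libraries.

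A gene counted as moved by both diets with similar size when it met 4 conditions: adjusted p under 0.05 against chow on each diet, the same direction on both, a smaller log2 fold change at least 0.5 times the larger, and an adjusted p of 0.05 or more between the 2 fat-rich diets. Of 13967 genes tested, 934 (6.69%) met them, of which 464 (3.32%) rose and 470 (3.37%) fell. These are called the common genes here. In 845 of them the 95% interval of the difference between the diets also lay within 1.5-fold, while for the other members a larger difference was compatible with the interval. Levels are normalised CPM, read counts rescaled so that every library has the same effective total, and values by library follow the order of the label numbers: 2, 3, 4, 6 and 8 for the ketogenic diet, 9, 10, 11, 12 and 14 for the high-fat diet and 15 to 19 for chow. Log2 fold changes are given with their standard error, and adjusted p is from edgeR's quasi-likelihood test with Benjamini-Hochberg adjustment over all 13967 genes.

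The liver turns dietary carbohydrate into fatty acids through acetyl-CoA, using NADPH from malic enzyme and the pentose phosphate pathway, and insulin and the transcription factors SREBP1 and ChREBP drive the genes for this. Diets rich in fat are known to lower that programme, while fatty acids activate PPARalpha, the receptor that raises fat oxidation and, when carbohydrate is very scarce, ketone body production. The sterol pathway (under SREBP2), detoxifying enzymes (under NRF2 and several nuclear receptors) and amino acid catabolism are further liver programmes that respond to feeding.

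The 4 promoters printed here were chosen because their genes stand for groups described below: Fasn for fatty acid synthesis, Sc5d for sterol synthesis, Ephx1 for detoxification and Fkbp5 as the leading rise. Each is the 250 bases before a RefSeq start site on build GRCm38.p6, on the strand of the gene (minus in all 4), at chr11:120824548-120824797 for Fasn, chr9:42264301-42264550 for Sc5d, chr1:181017570-181017819 for Ephx1 and chr17:28486150-28486399 for Fkbp5. The Fkbp5 and Ephx1 windows lie in introns of those genes as GENCODE M21 annotates them, before an internal start, and none of the 4 overlaps an annotated exon. Capitals mark matches on either strand to the E-box CACGTG and to the NF-Y box CCAAT, which reads ATTGG on the other strand, and overlapping matches run together.
Fasn: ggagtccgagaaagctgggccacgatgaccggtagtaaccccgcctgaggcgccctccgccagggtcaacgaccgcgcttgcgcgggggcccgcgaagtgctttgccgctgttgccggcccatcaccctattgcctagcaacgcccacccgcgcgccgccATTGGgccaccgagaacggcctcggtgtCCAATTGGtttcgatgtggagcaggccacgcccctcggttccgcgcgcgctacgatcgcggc
Sc5d: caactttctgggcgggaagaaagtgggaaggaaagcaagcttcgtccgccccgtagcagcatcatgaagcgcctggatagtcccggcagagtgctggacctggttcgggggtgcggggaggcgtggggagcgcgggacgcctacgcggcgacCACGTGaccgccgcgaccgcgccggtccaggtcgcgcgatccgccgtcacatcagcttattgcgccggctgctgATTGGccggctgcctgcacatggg
Ephx1: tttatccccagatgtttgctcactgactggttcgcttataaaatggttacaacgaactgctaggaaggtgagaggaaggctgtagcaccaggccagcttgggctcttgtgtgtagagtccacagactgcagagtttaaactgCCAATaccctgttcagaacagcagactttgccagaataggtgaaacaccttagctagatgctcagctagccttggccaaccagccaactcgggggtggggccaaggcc
Fkbp5: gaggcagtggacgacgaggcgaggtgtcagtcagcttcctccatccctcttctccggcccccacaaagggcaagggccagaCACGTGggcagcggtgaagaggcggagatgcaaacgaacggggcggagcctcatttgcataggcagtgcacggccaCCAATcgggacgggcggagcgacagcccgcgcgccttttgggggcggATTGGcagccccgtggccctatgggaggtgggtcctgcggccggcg
Among 32851 RefSeq promoters of this length, 6.02% hold the E-box, 33.8% the NF-Y box, 0.192% the sterol regulatory element and 10.2% the antioxidant response element. Promoters of common rises held the E-box in 9.5% and the NF-Y box in 34.9%, and those of common falls in 9.19% and 41.3%. All promoters include those of genes not tested here, no test was made, and a match describes letters, not binding.

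In the contrast of both diets pooled against chow, 3389 genes were called (24.3% of those tested), 1836 higher (13.1%) and 1553 lower (11.1%). The shares of 13.1% and 11.1% are to be set beside the pooled rises and falls of each gene list below. The common genes made up 27.6% of the 3389 calls. A further 869 calls (25.6%) were genes that only the ketogenic diet moved, with the 2 diets differing, and 737 (21.7%) were called on the ketogenic diet with no call for the difference between diets. Only 156 (4.6%) were genes that the high-fat diet alone moved. Against chow, 4296 genes were called on the ketogenic diet (30.8%, with 16.2% higher and 14.6% lower) and 2182 on the high-fat diet (15.6%, with 8.3% higher and 7.32% lower), and 1294 were called on both. Of those 1294, 1230 moved in the same direction and 64 in opposite directions. Both comparisons use the same 5 chow libraries, so their errors are shared. Among the 1230, 296 did not reach similar size, of which 267 moved further on the ketogenic diet and 29 further on the high-fat diet. At the limit of similar size, Rc3h1 (log2 0.42 on the ketogenic and 0.23 on the high-fat diet) and M6pr (-0.14 and -0.25) lay just inside, and Aspg (-0.40 and -0.20) and Acad12 (1.36 and 0.68) just outside.

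**Figure D1:**
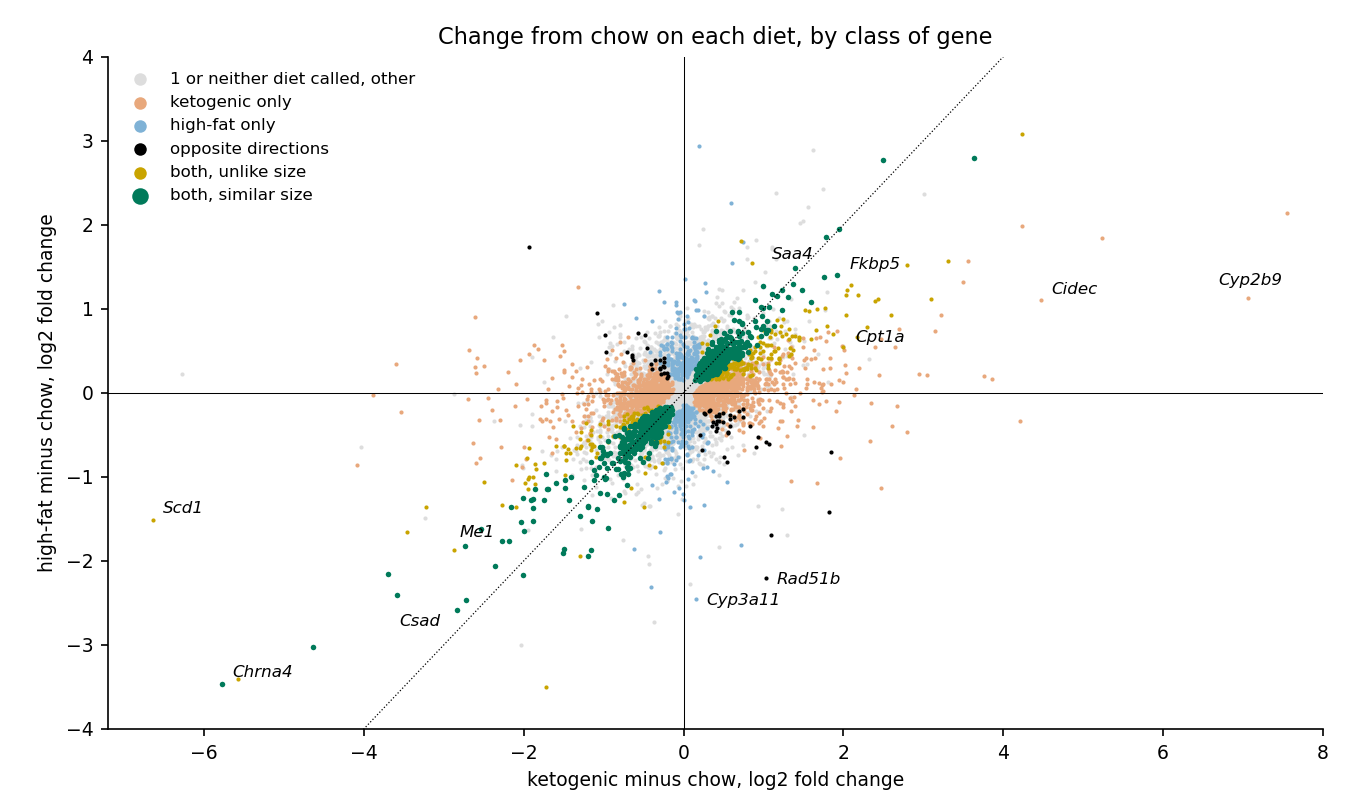
Log2 fold change from chow of each tested gene on the ketogenic diet (horizontal axis) and on the high-fat diet (vertical axis), coloured by class, with the dotted line marking equal change. The 934 common genes (green) lie around the line because the rule for similar size required it. Scd1 and Cpt1a moved on both diets with unlike size, and Cidec and Cyp2b9 passed on the ketogenic diet alone.

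Most common changes were small. The median size was 0.38 on the log2 scale, and 68 common genes passed a 2-fold change in the pooled contrast, 18 upward and 50 downward. In 489 common genes the 5 chow values did not overlap the 10 fat-rich values (743 such genes among all tested, 5.32%, with the fat-rich values higher in 2.93% and lower in 2.39%). The change was larger on the ketogenic diet for 525 of the 934. The median ratio of the smaller to the larger change was 0.81, where the rule for common genes already required at least 0.5.

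Library facts that touch these counts are as follows. Summed estimated counts ran from 34707597 to 50914494 in ketogenic, 30121672 to 44764257 in high-fat and 30190806 to 43688344 in chow libraries. The common genes followed transcript length. In the quintile of genes with the shortest transcripts (ribosomal protein genes left out), 28 common genes rose and 156 fell, and in the quintile with the longest 215 rose and 41 fell. Relative to the gene's mean over all libraries, the median of the longest quintile minus that of the shortest (log2) was 0.04, 0.10, 0.09, 0.03 and -0.03 in ketogenic libraries, -0.10, 0.00, 0.06, 0.19 and 0.21 in high-fat libraries and -0.23, -0.08, -0.05, -0.05 and -0.15 in chow libraries. It was lowest in chow library 15 and highest in high-fat libraries 12 and 14, and high-fat library 9 overlapped the chow range. With each library's length trend taken out, an alternative chosen after seeing the data, 347 common genes rose and 385 fell, and 620 of the 934 (66.4%) remained common. With the deposited effective lengths as an offset the gradient stayed (23 rises and 134 falls in the shortest quintile, 146 and 32 in the longest), 706 genes were common, and 595 of the 934 (63.7%) remained. Without chow library 15, 347 rose and 310 fell, and 620 remained. The part of RNA quality or library preparation in the length gradient was not tested.

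**Figure D2:**
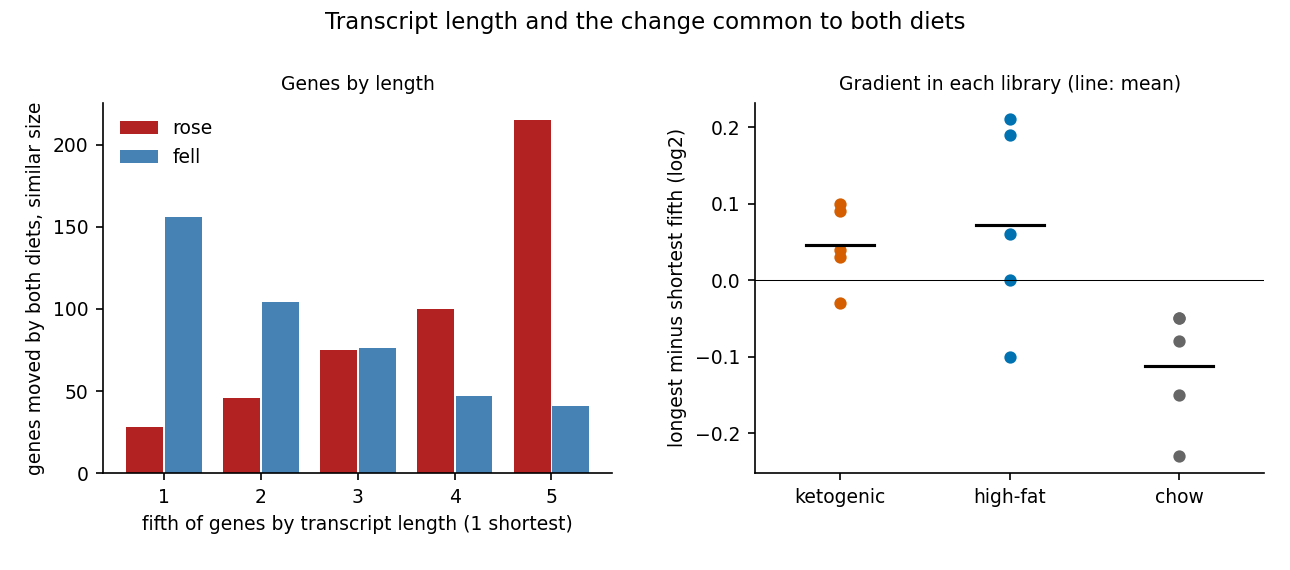
Left, number of common genes that rose (red) or fell (blue) in each quintile of the tested genes by transcript length, without ribosomal protein genes. Right, median log2 level of the longest quintile minus that of the shortest in each library (points) with the mean of each diet (lines). Rises go from 28 to 215 and falls from 156 to 41 from the shortest to the longest quintile, and 4 of the 5 high-fat libraries lie above every chow library.

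Several genes that supply NADPH for fat synthesis fell on both diets. Of 10 tested genes of NADPH supply and the pentose phosphate pathway, 6 fell in the pooled contrast and 4 did not pass, and 5 of the 6 were common genes (Me1, G6pdx, Pgd, Tkt and Rpia). The median log2 change was -0.42 on the ketogenic and -0.36 on the high-fat diet, against -0.01 and 0.01 over all genes. Me1, the cytosolic malic enzyme (chr9:86581371-86695953), measured 152, 133, 163, 134 and 151 CPM under ketogenic feeding, 234, 169, 156, 229.8 and 193 under high-fat feeding and 828, 469.8, 536, 888 and 598 under chow feeding. All 10 fat-rich values lay below the lowest chow value, although chow itself ranged from 469.8 to 888. Me1 fell by 1.97 ± 0.14 on the log2 scale (adjusted p = 2.34e-07), by 2.18 on the ketogenic and 1.76 on the high-fat diet. G6pdx, which opens the pentose phosphate pathway (chrX:74409483-74429194), measured 2.79, 1.99, 3.16, 2.09 and 2.12 CPM under ketogenic feeding, 3.5, 2.97, 3.07, 3.14 and 2.21 under high-fat feeding and 15.8, 10.0, 8.46, 20.9 and 6.89 under chow feeding. The groups did not overlap, and G6pdx fell by 2.21 ± 0.22 (adjusted p = 1.01e-05). It overlaps exons of Ikbkg on the other strand, which stood at 73.0, 94.9 and 112 CPM (means, ketogenic, high-fat and chow) and fell by 0.43. Reads of the pair cannot be told apart where they overlap, because the strand setting is not given. Pgd, the next dehydrogenase of the pathway, fell by 0.90 ± 0.09 (adjusted p = 2.16e-06), and Tkt, transketolase, fell by 0.66 ± 0.07 (3.23e-06), both without overlap. Among the 4 that did not pass were Taldo1 (-0.10) and H6pd (0.12), and Idh1, cytosolic isocitrate dehydrogenase, was called on the high-fat diet alone (-0.33).

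The summed level of the NADPH list came to 1207, 1169.6, 1209, 1222 and 1212 CPM in ketogenic libraries, 1295, 1160.1, 1117, 1205 and 1037 in high-fat libraries and 2064, 1551, 1668, 2076 and 1662 in chow libraries. The fat-rich ranges overlapped each other and neither reached chow. The list of 14 lipogenic enzymes, Scd1 included, behaved otherwise in sum: 1506 ± 127 CPM (ketogenic), 6004 ± 1436 (high-fat) and 14883 ± 5261 (chow; SD, n = 5). Scd1, the delta-9 desaturase, carried most of that gap, with 121 ± 55.9, 4217 ± 1391 and 11987 ± 4402 CPM.

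Of 14 lipogenic enzymes tested, 9 fell in the pooled contrast, 2 rose (Hacd3 and Oxsm) and 3 did not pass. Of these 9, 7 fell with similar size on both diets, and Scd1 and Acly, ATP-citrate lyase, fell with unlike size (-6.64 and -1.51 for Scd1, -2.09 and -1.36 for Acly, ketogenic then high-fat). Acss2, which makes acetyl-CoA from acetate, measured 108, 91.1, 101, 130 and 109 CPM under ketogenic feeding, 234, 155, 140.3, 149 and 112 under high-fat feeding and 390.2, 295, 294, 535 and 226 under chow feeding. High-fat library 9 exceeded chow library 19, and Acss2 fell by 1.41 ± 0.19 (adjusted p = 0.000146). Fasn, the fatty acid synthase (chr11:120805846-120824547), measured 222, 155, 178, 162 and 113 CPM under ketogenic feeding, 296, 335, 231, 240.1 and 289 under high-fat feeding and 609.7, 369.7, 422, 1007 and 319 under chow feeding. Every ketogenic value lay below chow, while high-fat library 10 exceeded chow library 19, and Fasn fell by 1.34 ± 0.24 (adjusted p = 0.00126). Its place among the common genes was not steady: the high-fat call was lost without any 1 of the high-fat libraries 10, 11, 12 or 14, or without chow library 15 or 18, and with total-count scaling or no filter on low counts (adjusted p between 0.0503 and 0.0879). Elovl6, which extends palmitate, fell by 1.02 ± 0.21 (adjusted p = 0.0032) and lost its high-fat call without any 1 of the same 6 libraries (adjusted p between 0.0524 and 0.0653). Acacb and Acaca, the 2 acetyl-CoA carboxylases, fell by 1.20 and 0.50, and Slc25a1, the mitochondrial citrate exporter, by 0.38. Over the 24 alternatives, between 0 and 8 of the 14 enzymes were common falls, but 9 to 11 fell in the pooled contrast in each. Srebf1, the gene of SREBP1, was called on the ketogenic diet alone (-1.02, and -0.32 on the high-fat diet), and the difference between diets was called (adjusted p = 0.0129).

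**Figure D3:**
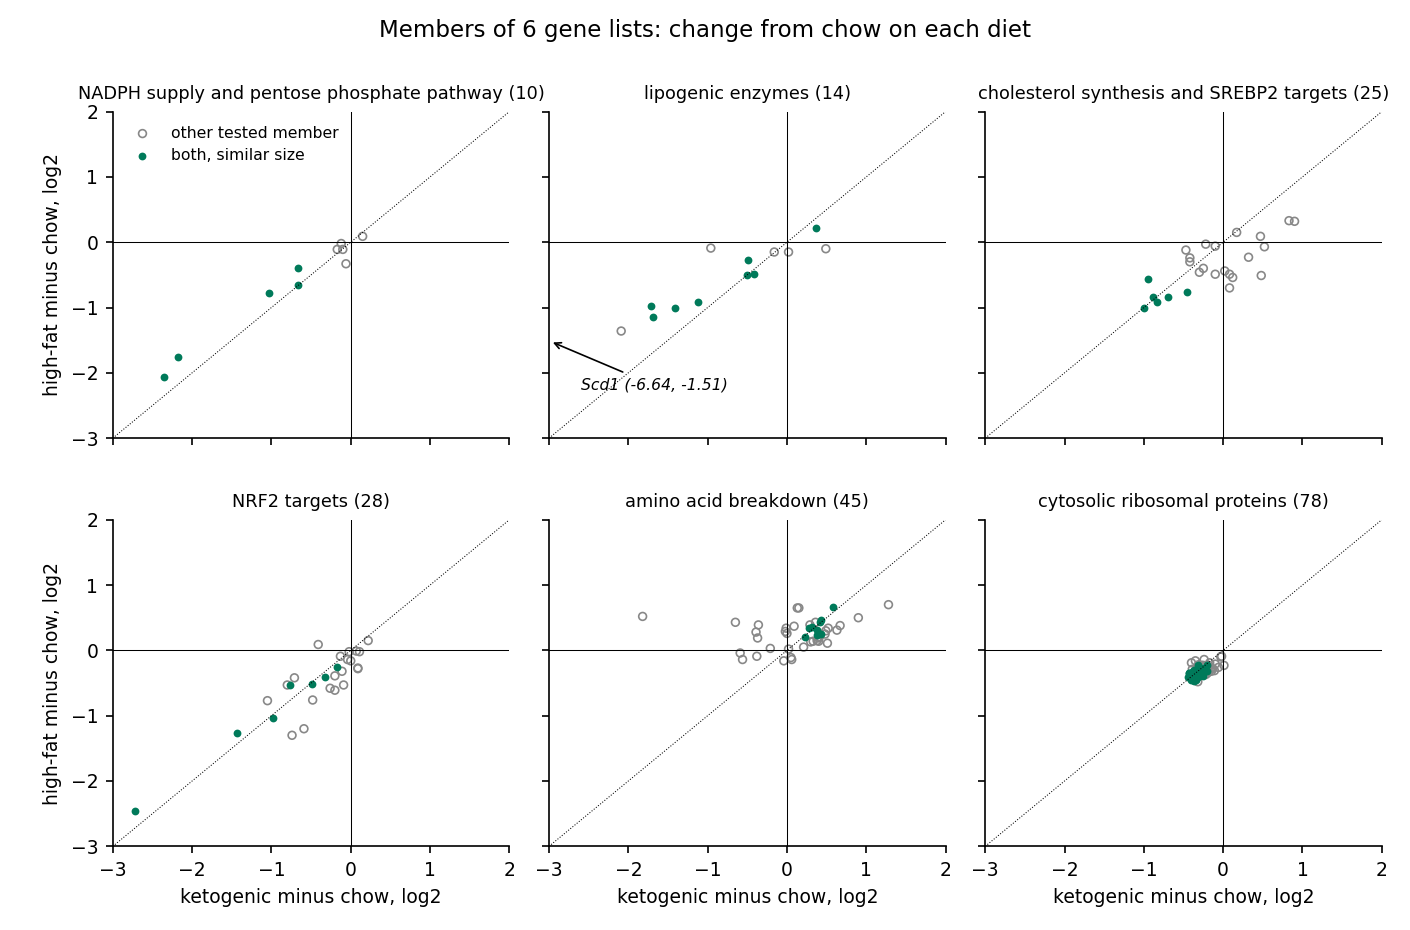
Log2 fold change from chow on the ketogenic diet (horizontal) and high-fat diet (vertical) of each tested member of 6 gene lists, with common genes filled and the dotted line marking equal change. Most genes of NADPH supply and of ribosomal proteins lie below 0 on both axes, and Scd1 lies beyond the left edge of the lipogenic panel at the values printed there.

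Sterol synthesis fell in part. Of 25 tested genes, 6 fell in the pooled contrast, all of them common genes (Acat2, Pmvk, Fdps, Lss, Sc5d and Insig1), 2 rose and 17 did not pass. The list's median was -0.10 on the ketogenic and -0.44 on the high-fat diet, and its summed level overlapped between diets (3749.8 to 5149.9 CPM ketogenic, 2602 to 4418 high-fat, 3910.3 to 5560.5 chow). Only 3 were common falls without chow library 15 or 18, without high-fat library 11 or 12, or with no filter on low counts. Sc5d, a late desaturase of cholesterol synthesis (chr9:42251595-42264256), measured 420.1, 390.1, 407, 483 and 365 CPM under ketogenic feeding, 544, 500.4, 366, 389 and 338 under high-fat feeding and 794, 717, 737, 906 and 659.6 under chow feeding. The fat-rich diets overlapped each other and not chow, and Sc5d fell by 0.86 ± 0.10 (adjusted p = 1.42e-05). Pmvk, phosphomevalonate kinase, fell by 1.0 ± 0.15, with the same log2 change of -1.0 on each diet (adjusted p = 0.000277). Insig1, which holds SREBP in the endoplasmic reticulum when sterols are plentiful and is itself an SREBP target, fell by 0.76 ± 0.14 (adjusted p = 0.000979). Srebf2, the gene of SREBP2, rose with unlike size (0.83 on the ketogenic and 0.33 on the high-fat diet). Sqle, squalene epoxidase, stood at -0.21 ± 0.25 and did not pass (adjusted p = 0.589).

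Among genes of detoxification, NRF2 targets and phase II enzymes gave more falls than rises on each diet. Phase I genes gave more rises than falls in the pooled contrast and on the ketogenic diet, and more falls than rises on the high-fat diet. Of 28 NRF2 targets tested, 15 fell, 1 rose (Prdx6) and 12 did not pass, and 7 fell with similar size on both diets. The median was -0.23 on the ketogenic and -0.41 on the high-fat diet, and 12 were called lower on the former (14.6% of all genes were) and 15 on the latter (7.32%). Ephx1, microsomal epoxide hydrolase (chr1:180976210-181020904), measured 235, 228, 245, 218 and 297 CPM under ketogenic feeding, 243, 219, 207, 246 and 271 under high-fat feeding and 629, 440.5, 465, 393 and 492 under chow feeding. Its fat-rich values fell in 1 range, well under chow, and the fall was 1.01 ± 0.09 (adjusted p = 1.02e-06). Gstm1, a glutathione S-transferase (chr3:108012255-108017973), measured 434, 421, 473, 573 and 754 CPM under ketogenic feeding, 587, 587, 567, 635 and 584 under high-fat feeding and 1939.8, 1362, 1174, 1204 and 1479 under chow feeding. No fat-rich value reached chow, and Gstm1 fell by 1.35 ± 0.13 (adjusted p = 2.57e-06). Gstm3 fell by 2.59 ± 0.27 (2.29e-05), Gstm4 by 1.28 ± 0.09 (7.53e-08) and Gstm2 by 0.79. These transferases are near-identical copies whose shared reads the authors' counting could split, so each is uncertain alone. Ugdh, which makes the glucuronic acid donor, fell by 0.65 ± 0.07 (6.4e-06), and Ftl1, ferritin light chain, by 0.50 ± 0.08 (0.000171). Nqo1 and Hmox1, much used NRF2 reporters, did not pass (-0.09 and 0.03), and Nfe2l2, the gene of NRF2, stood at -0.11.

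Of 42 genes of phase II conjugation (a list that holds the transferases and Ephx1 as well), 19 fell, 9 rose and 14 did not pass, with 8 falls and 3 rises of similar size. Ugt2b35, a glucuronosyltransferase, fell by 0.85 ± 0.07 (adjusted p = 3.05e-07). The 3 rises were Sult1d1, Sult1b1 and Gstk1. Sult1d1, a sulfotransferase (chr5:87554645-87569027), measured 116, 207, 166, 179 and 198 CPM under ketogenic feeding, 181, 221, 156, 172 and 181 under high-fat feeding and 84.6, 86.1, 92.5, 72 and 66.3 under chow feeding. Chow lay below every fat-rich value, and Sult1d1 rose by 1.15 ± 0.13 (adjusted p = 1.32e-05). Among cytochrome P450 and other phase I genes, 10 of 37 fell and 14 rose in the pooled contrast. By diet, 17 rose and 8 fell on the ketogenic diet, and 5 rose and 9 fell on the high-fat diet. The common genes were 2 falls: Cyp1a2 (-0.66 ± 0.11, adjusted p = 0.000243), which oxidises caffeine and aromatic amines, and Cyp2c40 (-2.93 ± 0.45, 0.000514). Cyp2c40 fell by 3.7 on the ketogenic and 2.16 on the high-fat diet. The interval of that difference ran from -2.85 to -0.23 (adjusted p of the difference 0.0805), so a larger fall on the ketogenic diet was compatible with it. Cyp2c40 measured 3.38, 1.71, 3.19, 0.576 and 1.9 CPM under ketogenic feeding, 7.96, 2.28, 12.4, 6.73 and 1.09 under high-fat feeding and 14.1, 25.5, 32.3, 27.5 and 38.8 under chow feeding. Fat-rich libraries lay below all chow libraries but scattered from 0.576 to 12.4 among themselves, and the Cyp2c copies share reads.

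Among the steepest falls was a gene of taurine synthesis. Csad, cysteine sulfinic acid decarboxylase (chr15:102176999-102204724), measured 62.0, 52.6, 80.1, 66.3 and 81.3 CPM under ketogenic feeding, 62.9, 66.8, 89.4, 88.6 and 100.5 under high-fat feeding and 566, 419.7, 426, 432 and 594 under chow feeding. The ketogenic and high-fat values overlapped, and both lay far below chow. Csad fell by 2.71 ± 0.13 (adjusted p = 9.64e-09), 6.52-fold, and the interval of the difference between diets ran from -0.58 to 0.08. It overlaps exons of Zfp740 on the other strand, which averaged 27.6, 29.8 and 34.5 CPM (ketogenic, high-fat and chow) and fell by 0.27. In the same list of methionine, one-carbon and cysteine genes, 11 of 26 rose, 7 fell and 8 did not pass, and the common genes were Csad and 4 rises. Bhmt, which remethylates homocysteine with betaine (chr13:93616675-93637961), measured 4417, 6357, 4325, 7486 and 6791 CPM under ketogenic feeding, 5969, 6029, 6147, 5368 and 5514 under high-fat feeding and 2056, 2487, 2953, 3844 and 1742 under chow feeding. Every fat-rich value exceeded the highest chow value, and the diet means were 5875 ± 1432 and 5806 ± 343 against 2616 ± 824 (SD, n = 5). Bhmt rose by 1.16 ± 0.18 (adjusted p = 0.000257). Dmgdh and Sardh, which take the product of that reaction through dimethylglycine and sarcosine, rose by 0.57 and 0.54, and Ahcy, S-adenosylhomocysteine hydrolase, by 0.47. Nnmt, nicotinamide N-methyltransferase, rose on both diets with unlike size, by 0.72 on the ketogenic and 1.81 on the high-fat diet.

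Other leading falls came from varied families. Chrna4, a nicotinic acetylcholine receptor subunit (chr2:181018380-181043546), measured 0.378, 0.204, 0.655, 0.874 and 0.244 CPM under ketogenic feeding, 6.14, 2.49, 1.48, 1.28 and 0.605 under high-fat feeding and 30.3, 19.9, 20.1, 53.8 and 7.98 under chow feeding. Chow varied from 7.98 to 53.8, yet no fat-rich value reached its lowest, and the fall was 4.61 ± 0.51 (adjusted p = 4.37e-05). The fall was 5.77 on the ketogenic and 3.46 on the high-fat diet with an interval of the difference from -4.05 to -0.57, so that similar size was met only narrowly (adjusted p of the difference 0.0505) and held in 18 of 24 refits. Aqp8, a water and peroxide channel of hepatocyte membranes (chr7:123462291-123468004), measured 63.3, 66.4, 50.2, 77.3 and 59.6 CPM under ketogenic feeding, 119, 83.0, 64.7, 79.1 and 61.8 under high-fat feeding and 273, 235, 225, 275 and 159 under chow feeding. Chow stood above all others, and Aqp8 fell by 1.70 ± 0.16 (adjusted p = 5.51e-06). Fam198a fell by 2.09 ± 0.14 (1.42e-08), Cyp2c69 by 2.99 ± 0.45 (0.000353), Nat8f5 by 1.30 ± 0.24 (0.0015) and Col15a1, a basement membrane collagen, by 1.51 ± 0.22 (0.000149). Col15a1 stood at -1.87 on the high-fat and -1.16 on the ketogenic diet (adjusted p of the difference 0.0744), and Nat8f5 shares exons with Nat8f6. Pnpla5, a triglyceride lipase family member named after its values were seen, averaged 1.21 CPM on chow, under the 5 CPM asked of leading genes, 0.0359 on the high-fat diet and had no count on the ketogenic diet.

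**Figure D4:**
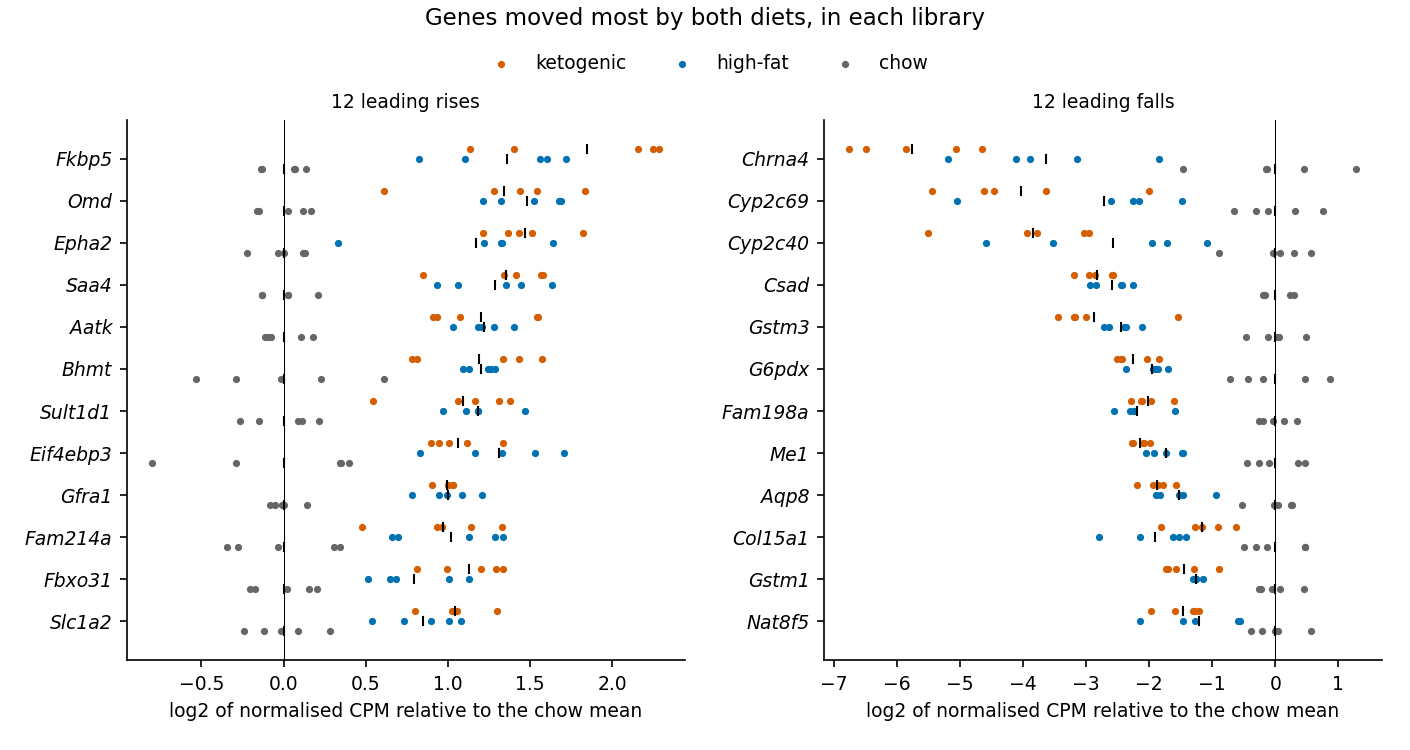
Log2 normalised CPM of the 12 leading rises (left) and 12 leading falls (right) in each library, relative to the mean of the chow libraries, with a tick at the mean of each diet. Chow values do not overlap the fat-rich values for any of the 24, which the choice of these genes required, and ketogenic and high-fat points overlap for most.

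The leading common rise at a level of at least 5 CPM was Fkbp5, a co-chaperone of the glucocorticoid receptor and one of its best known targets (chr17:28399094-28517527). It measured 58.6, 70.7, 119, 127 and 130.2 CPM under ketogenic feeding, 47.2, 57.5, 81.0, 78.7 and 87.9 under high-fat feeding and 24.4, 29.3, 24.3, 28 and 27.9 under chow feeding. All fat-rich values exceeded chow, with 3 ketogenic libraries above every high-fat library, and Fkbp5 rose by 1.66 ± 0.22 (adjusted p = 0.000134). Gfra1, a GDNF family receptor (chr19:58235604-58455909), measured 212, 198, 216, 212 and 216 CPM under ketogenic feeding, 182, 211, 244, 204 and 225 under high-fat feeding and 106, 117, 102, 105 and 100.1 under chow feeding. The diets gave 211 ± 7.49 and 213 ± 23.0 against 106 ± 6.51 (SD, n = 5), a rise of 1.0 ± 0.06 (adjusted p = 9.64e-09). Slc1a2, a glutamate transporter that marks hepatocytes around the central vein (chr2:102658659-102790784), rose by 0.95 ± 0.10 (5.51e-06). Epha2, an ephrin receptor, rose by 1.35 ± 0.17 (9.29e-05), Aatk, a kinase, by 1.22 ± 0.12 (8.69e-07), Omd, a small matrix proteoglycan, by 1.44 ± 0.16 (5.29e-06) and Fbxo31, a ubiquitin ligase subunit, by 0.97 ± 0.12 (2.31e-05). Eif4ebp3, a repressor of cap-dependent translation, rose by 1.13 ± 0.20 (0.00113; it overlaps AC115631.1 on the same strand, at 9.14 CPM and -0.06), and Fam214a by 1.0 ± 0.17 (0.00088). Inhbe, the activin E subunit secreted by hepatocytes, rose by 1.11 ± 0.20 (0.00127), with some overlap.

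Some acute phase genes rose on both diets. Of 31 tested, 15 rose, 1 fell (Apcs) and 15 did not pass, where 13.1% of all genes rose and 11.1% fell. The rises of similar size were 4 (Saa4, Orm3, Steap4 and Itih3). Saa4, the constitutive serum amyloid A (chr7:46727998-46732603), measured 411, 608, 682, 675 and 578 CPM under ketogenic feeding, 621, 708, 582, 436 and 475 under high-fat feeding and 232, 232, 264, 208 and 208 under chow feeding. Chow reached at most 264 and every fat-rich library lay above it, and Saa4 rose by 1.33 ± 0.13 (adjusted p = 2.57e-06). Saa1, the inducible form, was called on the high-fat diet alone (2.42, adjusted p = 0.0249, and 1.75, 0.0541, on the ketogenic diet), and spread widely, at 49.4 ± 53.0, 78.8 ± 50.5 and 14.7 ± 2.46 CPM. Saa and Serpina copies share reads. Lcn2, Mt1 and Mt2 rose on the ketogenic diet with the difference between diets called. Steap4, a metalloreductase, rose by 0.87 ± 0.11 (2.24e-05), and Slc39a14, a zinc and iron importer, by 0.59 ± 0.10 (0.000235). C4b, complement component 4, rose by 0.47 on each diet (pooled adjusted p = 0.000257). It was the only common gene of 26 complement genes tested, of which 2 rose, 3 fell and 21 did not pass. Pros1 and F5, protein S and factor V of coagulation, rose by 0.35 and 0.34. They were the common genes of 23 coagulation genes tested, of which 6 rose and 17 did not pass.

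Genes of amino acid breakdown rose by small amounts. Of 45 tested genes, 27 rose, 4 fell (Haao, Acmsd, Hal and Amdhd1) and 14 did not pass, with medians of 0.29 and 0.28 on the ketogenic and high-fat diets against -0.01 and 0.01 over all genes. By diet, 23 rose and 9 fell on the ketogenic diet and 24 rose on the high-fat diet, where the others did not pass, and 3 moved in opposite directions. Of the 27, 9 were common rises: Aass for lysine, Hpd and Fah for tyrosine, Bckdha, Dbt, Ivd and Mccc1 for branched-chain amino acids, Pccb for propionyl-CoA and Agxt for glyoxylate. With the length trend removed 26 of the 45 rose, 10 of them common, and with the effective-length offset 24 and 4. Aass (chr6:23072173-23132986) measured 347, 425, 354, 369 and 363 CPM under ketogenic feeding, 368, 416, 376, 405 and 414 under high-fat feeding and 255, 267, 264, 249 and 207 under chow feeding. No chow value reached the fat-rich range, and Aass rose by 0.63 ± 0.07 (adjusted p = 3.44e-06). Ivd, isovaleryl-CoA dehydrogenase, rose by 0.42 ± 0.07 (0.000283) and Pccb by 0.31 ± 0.05 (0.000302). The 4 pooled falls passed on the ketogenic diet alone, and Acmsd stood at -1.82 there and 0.52 on the high-fat diet. The alanine transaminases Gpt2 (0.52 ± 0.09, 0.000261) and Gpt (0.49 ± 0.09, 0.000529) and the glucose-6-phosphate transporter Slc37a4 (0.39 ± 0.09, 0.00354) were the common rises among 18 genes of gluconeogenesis, of which 9 rose and 9 did not pass. Pck1, phosphoenolpyruvate carboxykinase, rose by 1.07 ± 0.36 (0.0461) and passed on the ketogenic diet alone, and G6pc stood at 0.01 ± 0.17 (0.974). Of 29 genes of pyruvate dehydrogenase and the tricarboxylic acid cycle, 14 rose, 4 fell and 11 did not pass in the pooled contrast. The ketogenic diet alone moved 13 of them (12.9% of all genes), and 2 were common rises and 3 common falls. Pdp2, a phosphatase that switches pyruvate dehydrogenase on, was a common rise (0.54). Pdk1, a kinase that switches it off, was a common fall (-0.39), and its pooled call was lost with the effective-length offset. Pdk4 was called on the high-fat diet alone (-1.33).

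Clock genes gave 10 rises and 2 falls among 23 tested, with 4 common rises (Per2, Per3, Tef and Noct) and medians of 0.19 and 0.31. Per2, a repressor of the clock (chr1:91415982-91459324), measured 52.0, 48.9, 41.4, 32.8 and 44.2 CPM under ketogenic feeding, 41.0, 65.5, 46.8, 45.7 and 34.1 under high-fat feeding and 26.4, 29.5, 24.3, 25.8 and 26.1 under chow feeding. Chow ranged from 24.3 to 29.5 with every fat-rich value above it, and Per2 rose by 0.77 ± 0.13 (adjusted p = 0.000749). Tef, an output regulator, rose by 0.62 ± 0.09 (6.6e-05) and Noct by 0.48 ± 0.11 (0.00567). Nr1d2 and Ciart rose on both diets with unlike size, Arntl fell on the ketogenic diet alone (-0.48), and Per1 did not pass. The collection time of each diet is not given, so that time of day and diet cannot be told apart for these genes. Among 23 heat shock chaperones, 8 rose and 15 did not pass, with Hsph1 (0.90 ± 0.16, 0.00126) and Dnajb4 (0.41 ± 0.08, 0.00164) of similar size. In the endoplasmic reticulum the folding enzymes Calr (-0.55), Pdia6 (-0.61) and Pdia3 (-0.44) fell on both diets, while of 24 genes of the unfolded protein response 6 rose and 6 fell. The pooled share over all genes tested was 13.1% for rises and 11.1% for falls.

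Ribosomal protein genes fell by small amounts. Of 78 tested, 68 fell in the pooled contrast and 10 did not pass, and 46 were common falls, with a median of -0.28 on the ketogenic and -0.31 on the high-fat diet. Their summed level was 9401 ± 365 CPM (ketogenic), 9170.3 ± 1171 (high-fat) and 11352 ± 772 (chow; SD, n = 5). Chow library 18 (10204) lay under high-fat library 9 (10456), so the diets overlapped. Rps26, of the small subunit, measured 67.8, 64.0, 63.2, 65.9 and 69.2 CPM under ketogenic feeding, 69.3, 68.6, 63.7, 58.4 and 55.8 under high-fat feeding and 95.8, 86.7, 84.4, 77.7 and 90.0 under chow feeding. It fell by 0.43 ± 0.06 (adjusted p = 3.57e-05) and Rpl37, of the large subunit, by 0.39 ± 0.06 (5.09e-05), each without overlap. These transcripts are short, with a median of 606 bases, and 77 of the 78 belong to the shortest quintile. With each library's length trend removed, 48 fell, 32 of them common, and the median was -0.16. The part of the length gradient in the remaining fall was not tested. Of 38 proteasome subunits, 15 fell in the pooled contrast and 1 rose. On the high-fat diet 14 of the 38 moved with no call on the ketogenic diet and a called difference between the diets. Over all genes 3.41% did so. Common falls were 3 of the 38 (Psmd11, Psmd14 and Psmd12), against 3.37% of all genes. With total-count scaling 8 subunits fell and none was common, and with the length trend removed 10 fell. Nuclear genes of the respiratory chain gave 4 rises and 5 falls among 74 with a median of -0.06, where 13.1% of all genes rose and 11.1% fell. Once the length trend was removed they gave 20 rises and 2 falls with a median of 0.08.

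**Figure D5:**
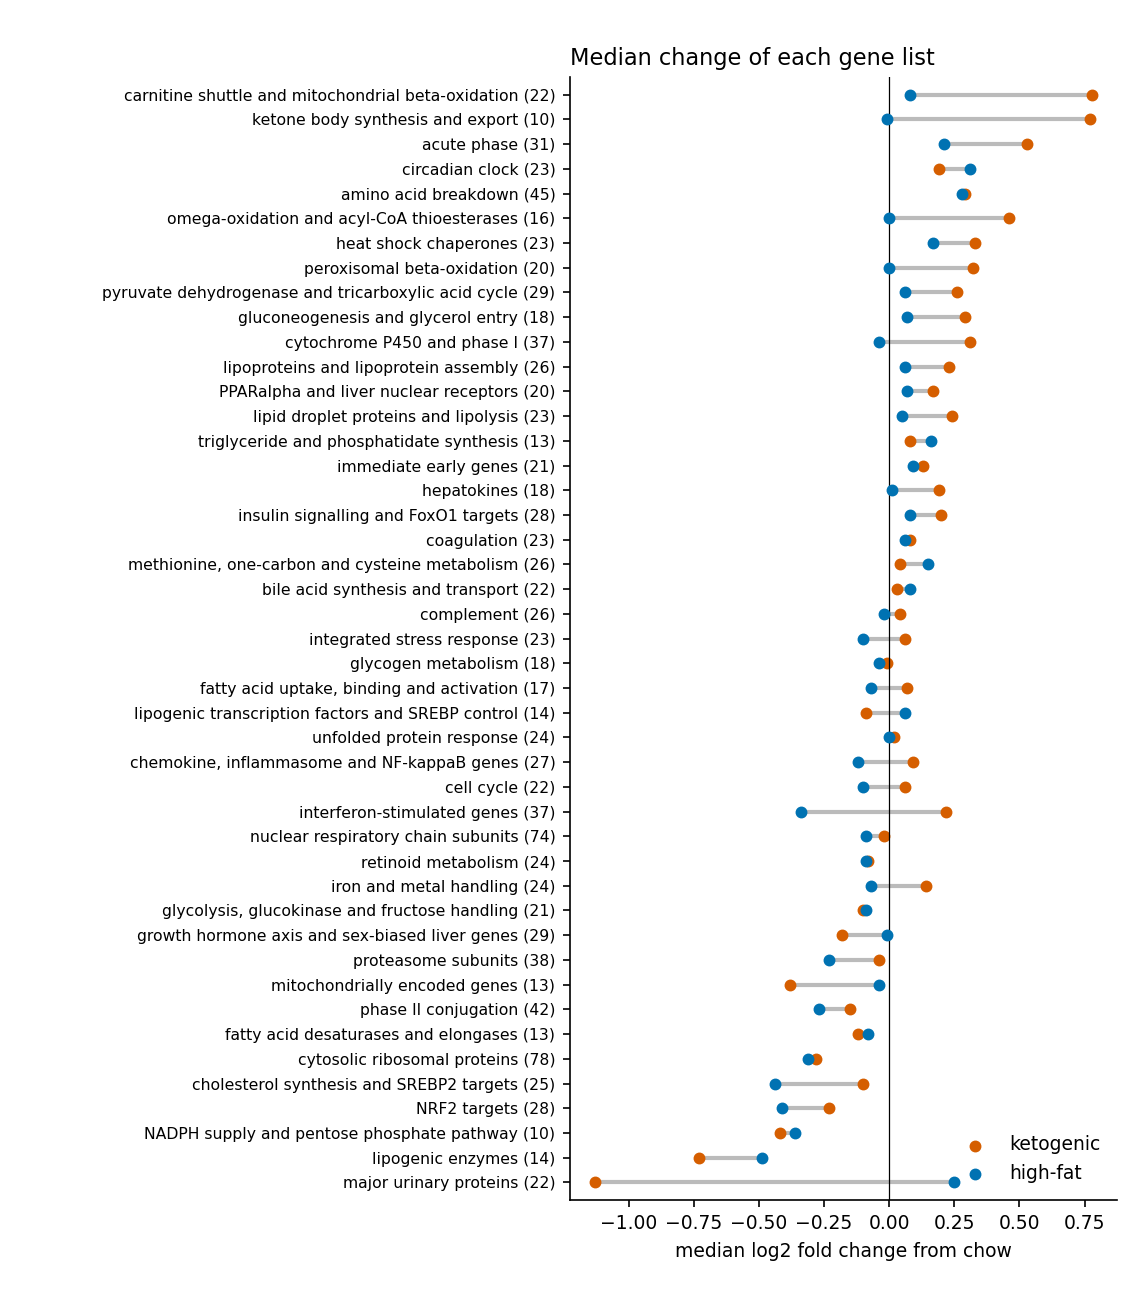
Median log2 fold change from chow of each gene list with at least 10 tested members (number tested in brackets) on the ketogenic and high-fat diets, ordered by the pooled median. Amino acid breakdown, ribosomal proteins and NADPH supply have nearly the same median on both diets, whereas fat oxidation, ketone bodies and major urinary proteins moved on the ketogenic diet.

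Genes of fat oxidation moved mainly on the ketogenic diet. Of 22 genes of the carnitine shuttle and mitochondrial beta-oxidation, 18 rose in the pooled contrast. However, 17 of the 22 were moved by the ketogenic diet alone with the diets differing, against 12.9% of all genes. The medians were 0.78 on the ketogenic and 0.08 on the high-fat diet. Over all genes, 26.1% differed between the 2 diets, 13.1% higher and 13% lower on the ketogenic diet. Cpt1a, which admits fatty acids to mitochondria, rose on both diets with unlike size (1.79 and 0.80, difference 5.41e-07), at 626 ± 52.9, 314 ± 42.3 and 181 ± 15.8 CPM. Cyp2b9, Mt2, Cidec and Lcn2 led the rises of the ketogenic diet alone, and Adgrf1, Mup2, Mup7 and Serpina1e led its falls. For the high-fat diet alone, Scara5, Hist2h3c1, Serpine2 and Ppp1r10 led the rises and Cyp3a11, Ugt1a9, Hsd17b6 and Pdk4 the falls. Cyp3a11, a P450 of drug metabolism, measured 2076, 1499.8, 1032, 2136 and 12301 CPM under ketogenic feeding, 576, 636, 451, 920.3 and 533 under high-fat feeding and 4591, 3322, 3264, 3347 and 2482 under chow feeding. All high-fat values lay below chow, and so did 4 of the 5 ketogenic values, while ketogenic library 8 lay above every other library. Its log2 change on the high-fat diet was -2.45, a comparison that library does not enter. The change of 0.16 on the ketogenic diet rests on ketogenic library 8. Without that library the pooled change went from -1.14 to -1.73 and Cyp3a11 was called lower on both diets with unlike size. Among the 64 opposite genes, Abcd2, a peroxisomal transporter, rose by 1.85 on the ketogenic diet and fell by 0.70 on the high-fat diet, and Acot1, an acyl-CoA thioesterase, gave 1.07 and -0.61. Rad51b gave 1.03 and -2.20 and Cabyr -1.93 and 1.73. Of the 64, 6 were called in the pooled contrast. Serpine2, Abcd2 and Acot1 kept these classes in 16, 14 and 15 of 24 refits, and Pdk4 lost its high-fat call without high-fat library 14.

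Markers of cell types were read beside these results. Hepatocyte markers (7 of 7 tested) summed to 68077 to 76739 TPM in ketogenic, 44378 to 54252 in high-fat and 44477 to 64215 in chow libraries. TPM is a share of each library's total, without the scaling applied to CPM. Mup7 alone held 1667 to 7639 TPM in ketogenic, 24356 to 78655 in high-fat and 28236 to 74466 in chow libraries. In the fit of scaled counts, the median log2 change of the 7 markers was -0.03 on the ketogenic and 0.01 on the high-fat diet. In the pooled contrast 1 of the 7 rose, and Ttr, transthyretin, was a common fall (-0.41). Of erythroid markers 6 of 8 tested fell in the pooled contrast, with a summed level of 447 ± 91.1 CPM (ketogenic), 666 ± 300.4 (high-fat) and 965 ± 151 (chow; SD, n = 5). By diet, 7 fell on the ketogenic diet and none was called on the high-fat diet, so none of the 8 was a common gene. High-fat libraries summed to 412 to 1185 CPM, a range that spans chow (749 to 1096). With 1 library left out, between 1 (without chow library 18) and 8 (without high-fat library 11) fell in the pooled contrast, with 3 and 2 without chow libraries 17 and 19, and without high-fat library 11 5 of them were common falls. With the length trend removed 3 fell. Of B and plasma cell markers 4 of 9 fell, with Ighm, the IgM heavy chain, the 1 common gene (-1.76). On the ketogenic diet 6 of the 9 fell (14.6% of all genes did) and on the high-fat diet 1 (7.32%). The ketogenic diet alone moved 4, with the diets differing. The summed level of this list was 140.4 ± 12.7 CPM (ketogenic), 170 ± 22.5 (high-fat) and 171 ± 41.2 (chow; SD, n = 5). In bulk tissue, fewer cells of a type and less RNA per cell cannot be told apart. Of sinusoidal endothelial markers 2 of 12 rose, of stellate cell and matrix markers 1 of 16, and of Kupffer cell and macrophage markers 1 of 15 rose and 1 fell. Over all genes tested, 13.1% rose and 11.1% fell in the pooled contrast. Markers of cholangiocytes (7 tested), neutrophils (3) and T and NK cells (7) gave no call in the pooled contrast with edgeR or with DESeq2, and Spp1, osteopontin, alone had an unadjusted p under 0.05 with edgeR (0.0414). Of pericentral hepatocyte markers 6 of 11 rose and 1 fell, with Slc1a2 and Cyp1a2 common genes in opposite directions. The part of blood content in the results above was not tested.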

How the data were processed

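The strand setting of the libraries is not given in the sources consulted. The deposited tables hold estimated counts and TPM per transcript for each of the 15 libraries, as the authors' quantifier wrote them per the file headers. The submitters' processing notes name Trimmomatic 0.36, kallisto 0.44, edgeR 3.28 and build GRCm38.p6. From there, the transcripts' estimated counts were added up by gene, using GENCODE M21 (105734 of 106332 transcripts matched, and unmatched ones held 0.184 to 0.223% of reads) and rounded to whole numbers. The low-count filter filterByExpr of edgeR (minimum count 10, minimum total 15) left 13967 of 25731 genes. TMM scaling and edgeR's quasi-likelihood test (edgeR 4.0.16, limma 3.58.1, R 4.3.3) were fitted once to all 15 libraries with 1 term per diet and 12 residual degrees of freedom. The biological coefficient of variation was 0.1306. The pooled contrast is the mean of the ketogenic and high-fat terms minus chow, and adjusted p is Benjamini-Hochberg over all genes tested, at 0.05.

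The members and gene lists were chosen with earlier results of these data known. Named genes were the 12 leading rises and 12 leading falls among common genes (at least 5 CPM in 1 diet, chow not overlapping the others), up to 3 common members per list by smallest adjusted p, 4 rises and 4 falls moved by each diet alone, 4 opposite genes, the 2 genes on each side of the similarity limit and a fixed panel. Genes named outside this rule, such as list members that rose or fell against the rest of a list, the remaining common members of small counts, overlapping neighbours, Nnmt and Spp1, were chosen after their values were seen. Promoters came from a RefSeq table, which matched 81 of 94 named common genes.

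Tested on simulated data drawn from the chow means and the real library sizes (13753 genes), the pooled contrast recovered 83.6% of 1.5-fold, 98.5% of 2-fold and 100% of 4-fold changes and made 9 false calls. The rule for common genes recovered 71.6%, 98.5% and 98.5% of them. The simulation moved both diets by the same fold, only in genes above a minimum level, and held no length gradient. No fold under 1.5 was simulated, while the median common change was 0.38 on the log2 scale. Recovery of smaller changes, or of changes that differ between diets, was thus not measured. No 2 libraries of a diet agreed within sampling noise (chi-square per degree of freedom 18.68 to 114.1). Alternatives were DESeq2 1.42.0, other scalings and filters, leaving out each library, other similarity rules, each diet fitted with chow alone, and 3 offsets for transcript length or GC content chosen after seeing the data. Tables and figures were made with Python 3.11.15, pandas 2.3.3, numpy 2.4.6 and matplotlib 3.10.9.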

Additional observations from a re-analysis of the deposited data

Results flagged for a closer look

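Among the 24 leading genes, each diet's 5 libraries were searched for a highest or lowest value far from the rest. Of 72 such groups 4 held one, and chance alone gives about 1 in 20 groups. Gfra1 was lowest in ketogenic library 3, at 198 CPM with the next library at 212, and still lay above every chow library. Gstm3 was highest in ketogenic library 8, at 14.3 CPM with the next at 5.19. Cyp2c69 was highest in ketogenic library 2, at 1.51 CPM with the next at 0.485. Fam198a was highest in high-fat library 10, at 2.49 CPM with the next at 1.59.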

How the results depend on the processing

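All 24 leading genes passed the pooled test under each of 24 refits (other tools, scalings, filters, offsets and each library left out), and 15 of them stayed common in all. Of 94 named common genes 91 passed in all and 42 stayed common in all. Both sets were chosen from the same libraries by these tests, the leading genes also for large change without overlap. Passing again was thus largely set by the choice and is no independent support. Over named genes and refits, 3243 values kept direction and call, 93 lost and 12 gained the call and 12 changed sign.

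No paired analysis was possible because no replicate number recurs between diets in the labels. Total-count scaling took the median of all genes from 0.003 to 0.045 (log2) and made 64.2% of pooled calls higher, against 54.2%. It gave 408 falls of the ketogenic diet alone (816 in the fit reported) and 110 rises of the high-fat diet alone (241), which the effective-length offset put at 160. With adjusted p under 0.01, 204 common genes rose and 203 fell. With the 10 fat-rich libraries as 1 group, 1215 genes rose against 1836. DESeq2 found 98 opposite genes against 64.

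Over the 24 refits, pooled falls ran from 2 to 5 among B and plasma cell markers, rises from 0 to 5 among sinusoidal endothelial markers, and common rises from 4 to 14 in amino acid breakdown and from 1 to 4 among heat shock chaperones. In the unfolded protein response 4 to 9 genes rose and 3 to 8 fell.

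Leaving out 1 library gave 310 to 544 common falls and 347 to 534 common rises. Falls of the high-fat diet alone ran from 132 to 374 and its rises from 162 to 431, lowest without high-fat library 11 (137 and 162) or 12 (132 and 172) and highest without high-fat library 9. Opposite genes ran from 28 without chow library 15 to 110 without high-fat library 9, with 41 and 42 without chow libraries 16 and 18 and 40 and 31 without high-fat libraries 10 and 11. Common falls were fewest without chow library 15, and for these shifts the cause was not tested beyond the loss of 1 library.

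Signs changed only for genes with no pooled call. G6pc (0.01) was just under 0 (-0.0) with the effective-length offset and with the stricter filter, -0.01 with length and GC trends removed, and -0.13 to 0.15 with 1 library left out. Col1a1 (-0.22) ran from -0.34 to 0.10 and Cabyr (-0.10) from -0.27 to 0.05 with 1 library left out.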
